A study of Mus musculus with 8 samples.

Results

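The 10 genes described here code for proteins that move calcium out of the endoplasmic reticulum (ER), into mitochondria and back into the ER store. They were chosen by symbol, with earlier results of these data known, and all 10 were found among the 18877 genes of the table. They are the inositol trisphosphate (IP3) receptors Itpr1, Itpr2 and Itpr3, the voltage-dependent anion channels Vdac1, Vdac2 and Vdac3, the sarco/endoplasmic reticulum calcium pumps (SERCA) Atp2a2 and Atp2a3, and the store-refilling pair Stim1 and Orai1. The samples are 4 wild-type and 4 mfn2-/- RNA-seq libraries of mouse activated muscle stem cells (ASCs). In the mfn2-/- group a floxed Mfn2 allele was deleted by Pax7-CreERT2, a tamoxifen-dependent recombinase made in muscle stem cells, so cells without Pax7 activity keep the gene. All mice had the mito-Dendra2 reporter, a green protein of mitochondria switched on by the same driver, and received tamoxifen at 75 mg/kg daily for 5 days. The tibialis anterior muscle was injured 2 days later with 50 uL of 1.2% BaCl2. ASCs were sorted 2 days after injury as living Dendra2+ CD34- cells. Age, sex and the number of animals behind a library are not given in the labels, so p-values measure the spread between these samples, which may be partly technical.

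IP3 receptors open in the ER membrane when a hormone or growth factor raises IP3, and the released calcium crosses the outer mitochondrial membrane through VDAC before the mitochondrial calcium uniporter takes it into the matrix. This transfer works where both organelles lie close together, and mitofusin 2, the product of Mfn2, sits in both membranes and takes part in holding them there. SERCA pumps bring calcium back into the ER, and when the store runs low STIM1 in the ER membrane opens the ORAI1 channel of the plasma membrane. In muscle, SERCA1 is the pump of fast fibers, SERCA2 that of slow fibers and, in another splice form, of nearly every cell, and SERCA3 is best known from blood, endothelial and epithelial cells.

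Values are normalized read counts, meaning reads divided by 1 size factor per library. Changes are differences of mean log2(value + 1), mfn2-/- minus wild-type, a scale that shrinks the change of weak genes. Libraries held 1880464 to 7508215 reads, with wild-type replicate 1 and mfn2-/- replicate 4 (2269009) the shallowest, and mfn2-/- replicate 4 also had reads for only 9646 genes against 12613 to 15270 in the others. Reads from Y-linked genes were absent (0) in 4 libraries, namely wild-type replicates 1 and 2 with mfn2-/- replicates 3 and 4, and numbered 807 to 2336 in the others, so each group held 2 libraries of each kind. The targeted gene Mfn2 measured 202 to 245 in wild-type and 104 to 172 in mfn2-/- libraries (log2 change -0.88, limma adjusted p = 0.0848). Markers of other cells moved with genotype: 8 of 10 fibroadipogenic markers were lower in mfn2-/- libraries, with a summed level of 195735 to 254043 in wild-type and 6003 to 10130 in mfn2-/- libraries, and 8 of 8 tenocyte markers were lower (36938 to 58437 against 306 to 407). Of the muscle stem cell markers, 4 of 10 were higher and 0 lower. Of 10 myofiber markers tested, 2 were higher (summed level 1148 to 2533 against 2582 to 3682), and 0 of 8 endothelial and 0 of 6 macrophage markers were called. By the same limma test 10.4% of all genes tested were called, 3.99% higher and 6.36% lower. The part of these cells in the results below was not tested, and in such bulk samples fewer cells of a type and less RNA per cell cannot be told apart.

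No calcium transfer gene passed the test over all genes, and Atp2a2, higher in mfn2-/- ASCs, came nearest. With limma and Benjamini-Hochberg adjustment over the 11754 genes tested, 0 of the 10 had an adjusted p under 0.05, where 10.4% of all genes tested did (3.99% higher and 6.36% lower). All 10 passed the filter of a mean of at least 10. At an unadjusted p under 0.05 there were 2 of 10, Atp2a2 and Atp2a3, against 24.8% of all genes. The ranges of the groups stood apart, with no overlap, for 1 of 10, Atp2a2, against 19.5% of all genes. By edgeR 0 of 10 passed (9.85% of all genes) and by DESeq2 1 of 10 (14.8%), again Atp2a2. The median log2 change of the 10 was -0.17 and that of all genes tested -0.16. Of the 10 differences 8 were negative, and so were 55.8% of those of all genes.

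**Figure D1:**
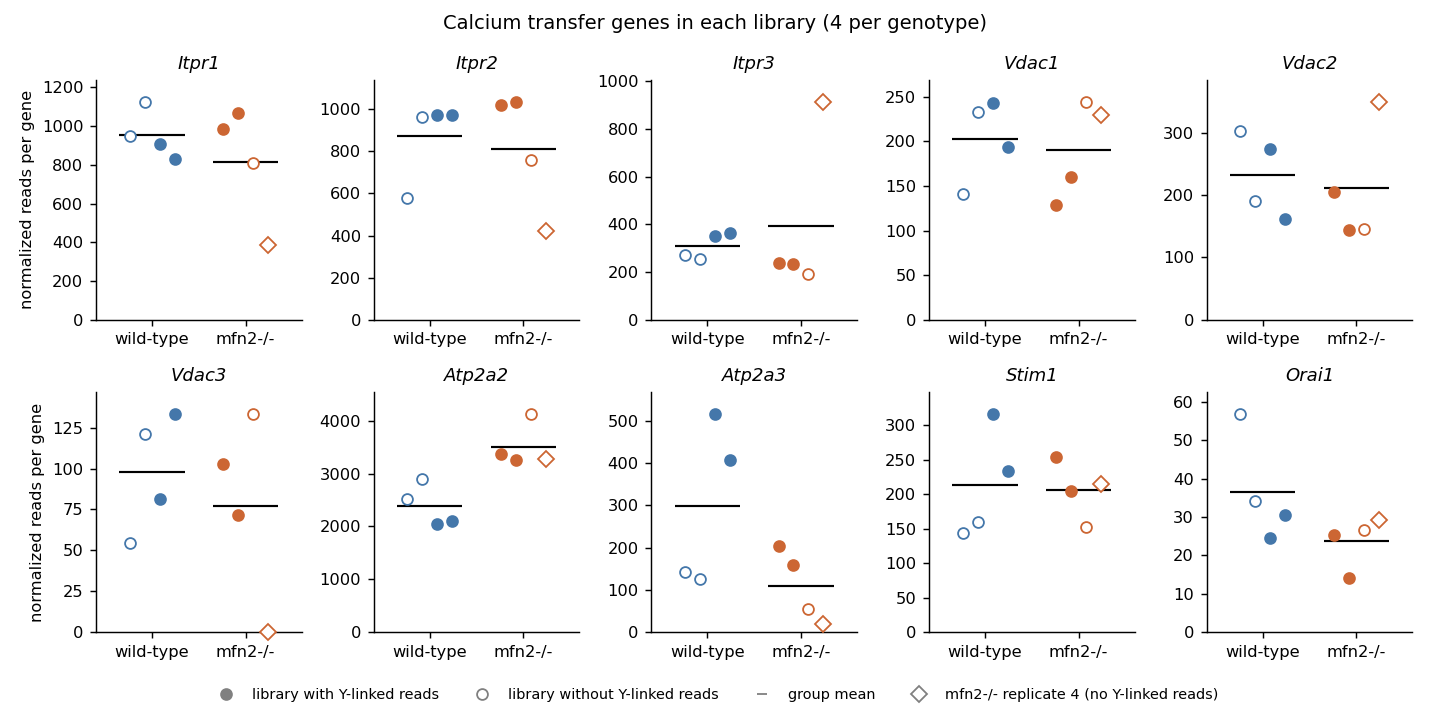
Normalized reads of the 10 calcium transfer genes (vertical axes, each from 0) in 4 wild-type and 4 mfn2-/- libraries, with points for libraries, filled where Y-linked reads were present, and bars for group means. Atp2a2 is the gene whose groups do not overlap, and mfn2-/- replicate 4 (diamond) lies apart for Itpr3 at 914 and for Vdac3 at 0.

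Among the calcium release channels, Itpr1 had the highest mean per kilobase of the longest coding transcript in both groups. That order depends on the length used, as given below. The groups overlapped for all 3 channels. Itpr1 (chromosome 6, 108213096 to 108551109, plus strand, GRCm38) codes for the type 1 IP3 receptor. It measured 948, 1126, 908 and 830.2 normalized reads in wild-type replicates 1 to 4 and 987, 1068, 811 and 387 in the mfn2-/- libraries. The last of these, mfn2-/- replicate 4, lay below every other library, and the other 3 were within the wild-type range or just under it. The log2 change was -0.32 (SE 0.29, 95% interval -0.94 to 0.29, limma adjusted p = 0.526), and it was 0.0025 without mfn2-/- replicate 4.

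Itpr2 (chromosome 6, 146108299 to 146502223, minus strand) codes for the type 2 receptor, which binds IP3 most tightly. It measured 578, 961, 974 and 975 in wild-type and 1018, 1037, 759 and 423 in mfn2-/- libraries. Both shallowest libraries, wild-type replicate 1 and mfn2-/- replicate 4, were the lowest of their groups. The log2 change of Itpr2 was -0.16 (SE 0.29, 95% interval -0.79 to 0.47, limma adjusted p = 0.780), and without mfn2-/- replicate 4 it was 0.12.

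Itpr3 (chromosome 17, 27057304 to 27122223, plus strand) codes for the type 3 receptor, which needs more IP3 to open. Its values were 271, 254, 350.4 and 363 in wild-type and 237, 235, 192 and 914 in mfn2-/- libraries. Of the mfn2-/- libraries 3 lay below all wild-type libraries and replicate 4 lay far above them. With all libraries the log2 change of Itpr3 was 0.04 (SE 0.42, 95% interval -0.86 to 0.94, limma adjusted p = 0.964), and without mfn2-/- replicate 4 it was -0.47 (adjusted p = 0.263). The value of 914 rested on 499 reads of that library. An antisense gene, Itpr3os, is annotated on the same chromosome, and whether the counting used strand is not stated.

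The VDAC genes code for the pores of the outer mitochondrial membrane, and none of them differed beyond the spread between libraries. Vdac1 (chromosome 11, 52360860 to 52389397, plus strand), the family member best known as the partner of IP3 receptors at contact sites, measured 141, 233, 243 and 193 in wild-type and 129, 159.6, 245 and 229 in mfn2-/- libraries. The groups covered nearly the same range. The log2 change of Vdac1 was -0.11 (SE 0.32, 95% interval -0.80 to 0.59, limma adjusted p = 0.870).

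Vdac2 (chromosome 14, 21825238 to 21845879, plus strand), which also binds the apoptosis protein BAK, measured 302, 189.8, 274 and 161 in wild-type and 205, 145, 145 and 350.0 in mfn2-/- libraries. The highest value was again that of mfn2-/- replicate 4. The log2 change of Vdac2 was -0.19 (SE 0.35, 95% interval -0.95 to 0.57, limma adjusted p = 0.788).

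Vdac3 (chromosome 8, 22577075 to 22593813, minus strand) measured 54.6, 121, 81.7 and 133 in wild-type and 103, 71.9, 133 and 0 in mfn2-/- libraries. The 0 was mfn2-/- replicate 4, where the other mfn2-/- libraries had 91 to 181 reads and the wild-type library of like depth had 24. The fitted log2 change of -1.55 (SE 1.27, 95% interval -4.29 to 1.19, limma adjusted p = 0.488) rests on that library, and without it the value was 0.11. A Vdac3 pseudogene is annotated on chromosome 13, and how reads shared with it were counted is not stated.

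The SERCA genes had the smallest p-values of the 10, with differences of opposite sign. Atp2a2 (chromosome 5, 122453513 to 122502225, minus strand) codes for SERCA2, the main pump of cells other than fast fibers. It measured 2527, 2897, 2048 and 2099 in wild-type and 3372, 3248, 4127 and 3266 in mfn2-/- libraries. Every mfn2-/- library lay above every wild-type library, with 2897 as the highest wild-type and 3248 as the lowest mfn2-/- value. The means were 2393 ± 399 and 3503 ± 420 (SD, n = 4 each). The mfn2-/- level was 1.47-fold the wild-type level (95% interval 1.12 to 1.93, on the log2(value + 1) scale), a log2 change of 0.56 (SE 0.18). The exact permutation test gave p = 0.0286, the smallest value that 4 against 4 libraries can give, and limma gave an adjusted p of 0.0700. The call depended on the setting. The adjusted p was 0.0712 by edgeR and 0.0264 by DESeq2 on recovered reads, 0.0154 with upper-quartile scaling, and 0.0497 when limma tested only genes with a mean of at least 50. The median of all genes shifted by 0.21 with upper-quartile scaling, by 0.29 with quantile normalization and by 0.11 with edgeR's scaling. Relative to that median the log2 change of Atp2a2 was 0.72 as deposited, 0.72 with upper-quartile scaling, 0.38 with quantile normalization and 0.68 with edgeR.

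Atp2a3 (chromosome 11, 72961169 to 72993044, plus strand) codes for SERCA3. It measured 143, 125, 517 and 408 in wild-type and 203, 158, 53.8 and 20.2 in mfn2-/- libraries. The wild-type libraries fell into a low and a high pair, and the lower mfn2-/- pair lay below all of them. The means were 298 ± 195 and 109 ± 86.1 (SD, n = 4 each), and the log2 change was -1.67 (SE 0.69, 95% interval -3.16 to -0.18). It did not pass over all genes (limma adjusted p = 0.150) nor in the exact permutation test (p = 0.171). Leaving out mfn2-/- replicate 4, which had 11 Atp2a3 reads, moved the log2 change to -1.04.

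The pairs seen for Atp2a3 were those with and without Y-linked reads. Among libraries with Y-linked reads, Atp2a3 was 408 and 517 in wild-type against 158 and 203 in mfn2-/- libraries, a log2 change of -1.35. Among those without, it was 125 and 143 against 20.2 and 53.8, a log2 change of -1.99. The groups stood apart within each kind of library, though they overlapped when pooled. Standing apart within both kinds was common, at 25.9% of all genes tested in the same direction and 6.42% in opposite directions. For Itpr1 the groups stood apart in opposite directions, with mfn2-/- libraries higher where Y-linked reads were present (987 and 1068 against 830.2 and 908) and lower where they were absent (387 and 811 against 948 and 1126). The log2 change of Atp2a2 was 0.67 with Y-linked reads and 0.44 without them. With the kind of library as a term, which was tried once the data had been seen, limma gave adjusted p = 0.0141 for Atp2a3 and 0.0308 for Atp2a2, and 12.4% of all genes tested passed in that fit. Atp2a1, the gene of SERCA1 and no member of the 10, went opposite ways. It was 623 and 879 against 333 and 448 with Y-linked reads, and 108 and 111 against 486 and 570 without them. Its log2 changes of -0.94 and 2.25 differed (limma interaction, adjusted p = 0.00452). For the 10 members 0 such differences passed, with adjusted p of 0.315 to 0.979, and of all genes tested 1.47% passed.

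**Figure D2:**
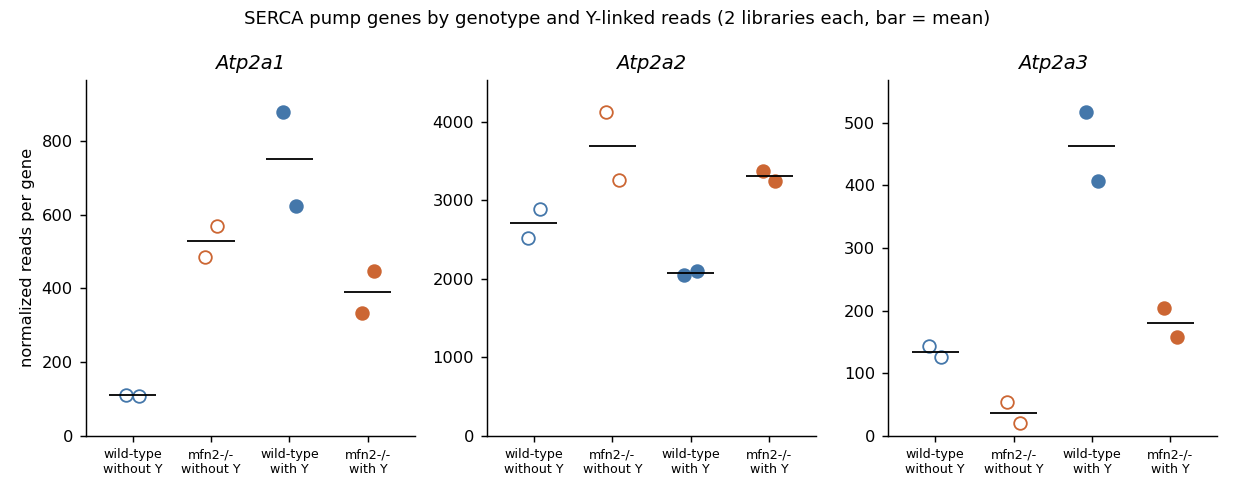
Normalized reads of the SERCA genes Atp2a1, Atp2a2 and Atp2a3 (vertical axes, each from 0) by genotype and by presence of Y-linked reads, with 2 libraries (points) and their mean (bar) in each column. Atp2a2 is higher and Atp2a3 lower in mfn2-/- libraries within both kinds, whereas Atp2a1 changes sign between them.

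Stim1 and Orai1, the sensor and the pore of store-operated calcium entry, did not differ beyond the spread between libraries. Stim1 (chromosome 7, 102267806 to 102437319, plus strand) measured 143, 159.7, 316 and 234 in wild-type and 253, 204, 153 and 214 in mfn2-/- libraries. The mfn2-/- values all lay inside the wild-type range. The log2 change of Stim1 was -0.00088 (SE 0.33, 95% interval -0.70 to 0.70, limma adjusted p = 0.999).

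Orai1 (chromosome 5, 123015074 to 123030456, plus strand) was the weakest of the 10, with 16 to 57 reads per library. It measured 56.9, 34.2, 24.5 and 30.5 in wild-type and 25.3, 14.2, 26.5 and 29.3 in mfn2-/- libraries. Wild-type replicate 1, at 25 reads, was the highest and mfn2-/- replicate 2 the lowest. The log2 change was -0.57 with a wide interval of -2.27 to 1.12 (SE 0.79, limma adjusted p = 0.701), which leaves room for a change of either sign at this depth.

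**Figure D3:**
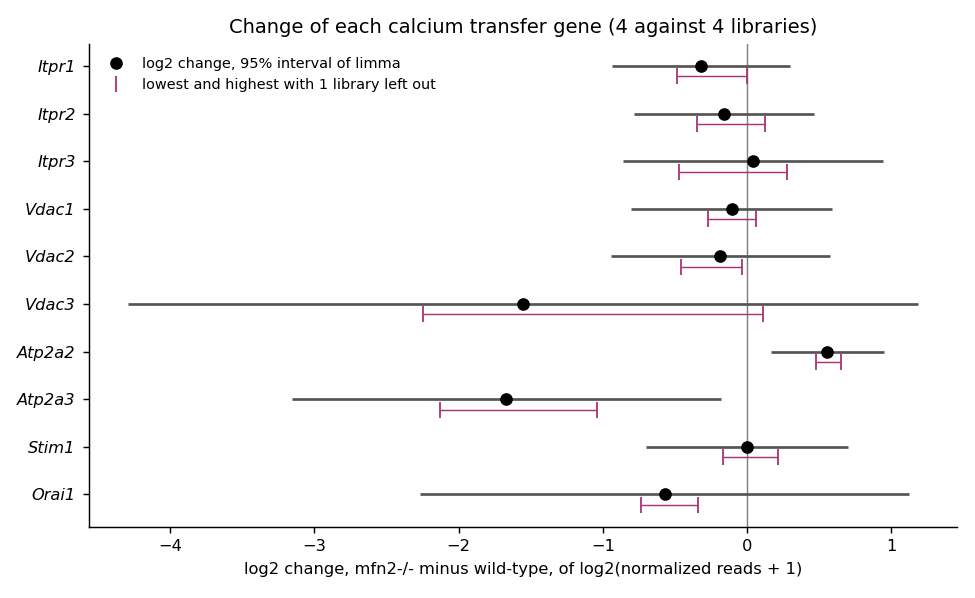
Log2 change of each calcium transfer gene, mfn2-/- minus wild-type (horizontal axis), with its 95% interval from limma (grey bar) and the lowest and highest value when 1 of 8 libraries was left out (purple bracket). The intervals of Atp2a2 (0.17 to 0.95) and Atp2a3 (-3.16 to -0.18) lie off 0 before adjustment for all genes, and that of Vdac3 is the widest.

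The spread within groups was not even across libraries. The median absolute deviation of the 10 genes from their group mean was 0.84 on the log2 scale in mfn2-/- replicate 4 and 0.20 to 0.49 in the other 7 libraries. In mfn2-/- replicate 4, 3 of the 10 genes were at the top of their group and 4 at the bottom.

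Levels were set beside each other per kilobase of the longest coding transcript, and the order depends on that choice. Over all annotated exons Itpr1 (18319 bases) is longer than Itpr2 (14802), and Vdac2 (4769) is longer than Vdac1 (2620). With those lengths the group means place Itpr2 above Itpr1 and Vdac1 above Vdac2. Vdac3 has 5420 bases over all exons against 1423 in its longest coding transcript. Its level per kilobase, and its share of the family given below, are therefore lower with all exons as length. In wild-type ASCs Atp2a2 was highest, at 533 ± 88.9 normalized reads per kilobase (SD, n = 4). It was followed by Vdac2 (119 ± 34.3), Vdac1 (100.3 ± 23.0) and Itpr1 (96.6 ± 12.7), then by Itpr2 (74.7 ± 16.8), Vdac3 (68.6 ± 25.4), Atp2a3 (64.8 ± 42.3) and Stim1 (48.9 ± 18.1), and last by Itpr3 (34.4 ± 6.12) and Orai1 (19.5 ± 7.54). Of the 9 pairs of neighbours in this order, 7 overlapped in their library values, and Atp2a2 against Vdac2 and Itpr1 against Itpr2 did not. In mfn2-/- ASCs the order of the first 6 was the same, Atp2a2 stood at 781 ± 93.6, and 8 of 9 neighbour pairs overlapped. Atp2a3 moved from the 7th place to the 9th, at 23.6 ± 18.7 per kilobase.

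The make-up of each family was compared as shares of its summed level per length, which do not depend on the size factor. Of the IP3 receptors, Itpr1 made up 47.2% ± 6.66 in wild-type and 41.6% ± 13.0 in mfn2-/- libraries, Itpr2 36.0% ± 5.40 and 34.9% ± 9.68, and Itpr3 16.8% ± 2.98 and 23.5% ± 22.6 (SD, n = 4 each). In mfn2-/- replicate 4 Itpr3 took 57.4%, against 11.7% to 12.7% in the other mfn2-/- libraries. Of the VDAC channels, Vdac1 made up 34.6% ± 5.58 and 36.5% ± 6.85, Vdac2 41.5% ± 13.1 and 41.7% ± 14.9, and Vdac3 23.9% ± 9.19 and 21.8% ± 14.9. Among the pumps Atp2a2 made up 75.2% ± 18.3 and 83.3% ± 2.22, Atp2a1 16.2% ± 13.4 and 14.1% ± 3.17, and Atp2a3 8.63% ± 4.93 and 2.60% ± 2.15. The wild-type share of Atp2a2 was 89.9% and 91.7% without Y-linked reads and 55.6% and 63.6% with them. In mfn2-/- libraries that share was 81.2% to 85.9%, between the wild-type pairs. The share of Atp2a3 was 4.97%, 3.87%, 13.7% and 12.0% in wild-type and 4.95%, 3.87%, 1.09% and 0.488% in mfn2-/- libraries. Of the 9 shares tested it had the smallest exact permutation p, 0.0571, which became 0.514 after adjustment over the 9, and the other 8 gave adjusted values of 1 in the same exact tests.

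**Figure D4:**
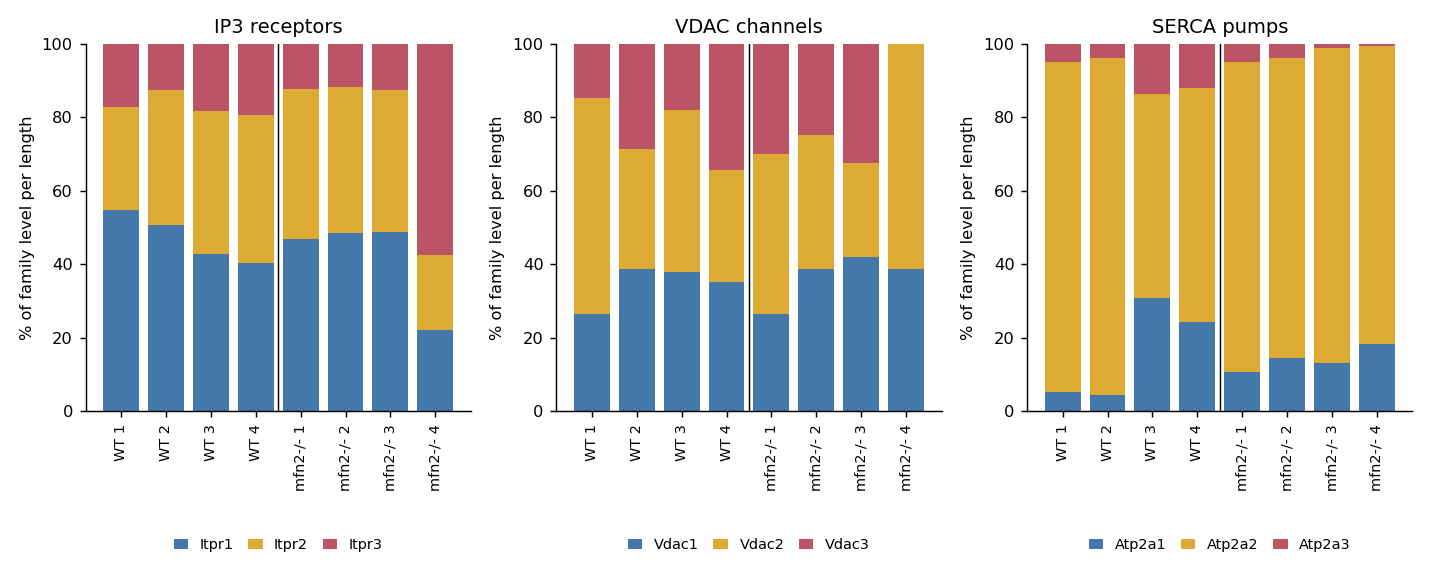
Share of each subtype (vertical axis, percent of the family's summed level per kilobase) in every wild-type (WT) and mfn2-/- library, for IP3 receptors, VDAC channels and SERCA pumps. Itpr3 takes 57.4% of the receptors in mfn2-/- replicate 4, and Atp2a3 is 0.488% to 4.95% of the pumps in mfn2-/- and 3.87% to 13.7% in wild-type libraries.

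The genes that act before, beside and after these 10 were read in 10 lists, which hold 125 genes, 118 of them in the table and 103 tested. By limma 4 were higher and 5 lower in mfn2-/- ASCs, 8.74% of those tested against 10.4% of all genes, and the median log2 change was -0.26. The regulators of calcium release had 0 of 17 called. Their members with the most reads were Ahcyl1, which codes for the IP3 receptor inhibitor IRBIT (0.26, limma adjusted p = 0.516), and Ryr3, a ryanodine receptor (1.30, adjusted p = 0.188). Of 13 genes that make or remove IP3, 1 rose. This was Itpkc, a kinase that turns IP3 into a form the receptors do not bind (log2 change 1.39, adjusted p = 0.0348), at 283 to 1076 normalized reads in wild-type and 1060.4 to 2214 in mfn2-/- libraries. The log2 change of Itpkc was 2.55 among libraries with Y-linked reads and 0.22 among those without (limma interaction, adjusted p = 0.00822). Gnaq, the G protein that drives phospholipase C, had a log2 change of -0.55 (adjusted p = 0.148).

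Of 13 proteins that hold calcium inside the ER 4 were called, 2 in each direction, where 10.4% of all genes were, and the lists were not tested against each other. The chaperones Hspa5 (BiP) and Hsp90b1 (GRP94), which also bind calcium, rose from 17220 ± 5006 to 31627 ± 1023 (log2 change 0.92, limma adjusted p = 0.0371) and from 7818 ± 344 to 12422 ± 1131 normalized reads (0.66, adjusted p = 0.0356, SD, n = 4 each). The EF-hand proteins Rcn1 (log2 change -2.51, adjusted p = 0.00124) and Rcn3 (-3.28, adjusted p = 5.08e-05) fell. Rcn3 measured 505 to 640.3 in wild-type and 35.6 to 99.0 in mfn2-/- libraries. Rcn1 and Rcn3 moved in the same direction as most fibroadipogenic and tenocyte markers given above, and the part of those cells was not tested.

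Of 18 genes of ER-mitochondria contacts, Mfn2 among them, 1 rose and 2 fell, where 3.99% and 6.36% of all genes tested did. Hspa9, the mitochondrial chaperone GRP75 that links IP3 receptors to VDAC, measured 1062 to 1715 in wild-type and 2086 to 2657 in mfn2-/- libraries (log2 change 0.83, limma adjusted p = 0.0139). Pacs2, a sorting protein of these contacts, went from 424 ± 101 to 178 ± 33.7 normalized reads (-1.23, adjusted p = 0.0125, SD, n = 4 each). Osbpl5, a lipid transfer protein, fell by 1.66 on the log2 scale (adjusted p = 0.0131). Pdzd8, a tether, was not called (0.38, adjusted p = 0.312).

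No gene was called in the lists of the uniporter, mitochondrial calcium exit, VDAC partners, and SERCA regulators with SERCA1. Of all genes tested 10.4% were called, and these short lists were not tested against that share. Of 7 uniporter genes tested 0 were called, and Ccdc90a, now called Mcur1, had a log2 change of 0.48 (limma adjusted p = 0.494). For calcium exit from mitochondria 0 of 7 were called, with Ghitm at 0.53 (adjusted p = 0.282) and Afg3l2 at -0.25 (adjusted p = 0.781). Of 8 partners of VDAC 0 were called, with hexokinase 2 (Hk2) at 0.87 (adjusted p = 0.237) and the adenine nucleotide carrier Slc25a4 at -0.48 (adjusted p = 0.322). Of 5 SERCA regulators and SERCA1 0 were called, with Tmx1, a redox protein that acts on SERCA2, at 0.36 (adjusted p = 0.429).

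Other genes of store-operated entry all had negative values, 8 of 8 with a median log2 change of -1.29, and 0 were called (limma adjusted p of 0.104 to 0.820). Of all genes tested 55.8% were negative, their median was -0.16, and 10.4% were called (3.99% higher and 6.36% lower). The summed level of the list was 759 to 1299 normalized reads in wild-type and 429 to 783 in mfn2-/- libraries. The genes of the list with the highest means lay nearer 0 than the list median. Stim2 had a log2 change of -0.29 (adjusted p = 0.627) and Tmem66, now called Saraf, a brake on this entry, -0.63 (adjusted p = 0.358). Of 8 genes of calcium export at the plasma membrane and Golgi, 1 fell. This was the sodium-calcium exchanger Slc8a1, at 85.0 to 151 in wild-type and 0 to 12.6 in mfn2-/- libraries (log2 change -4.16, adjusted p = 0.0181), with 0 reads in mfn2-/- replicate 4. The calcium pumps Atp2b4 (0.33, adjusted p = 0.232) and Atp2b1 (0.64, adjusted p = 0.0639) were not called.

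Some calls in these lists were lost when a library was left out. Without wild-type replicate 3 there were 3 and without wild-type replicate 4 there were 5, in place of 9, while the share of all genes called went from 10.4% to 5.74% and 6.42%. Hsp90b1 lost its call in limma when any library but mfn2-/- replicate 3 was left out (adjusted p up to 0.107), with a log2 change of 0.63 to 0.73 throughout. Hspa5 lost it without wild-type replicates 3 or 4 or mfn2-/- replicates 1, 2 or 3 (limma adjusted p up to 0.155), with a log2 change of 0.78 to 1.06. Itpkc lost its call without wild-type replicates 3 or 4 or mfn2-/- replicates 1 or 2 (up to 0.0977), Slc8a1 without wild-type replicates 3 (0.0747) or 4 (0.0648), and Hspa9 (0.0567) and Osbpl5 (0.0643) without wild-type replicate 3. Rcn1, Rcn3 and Pacs2 kept theirs with each library left out.

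**Figure D5:**
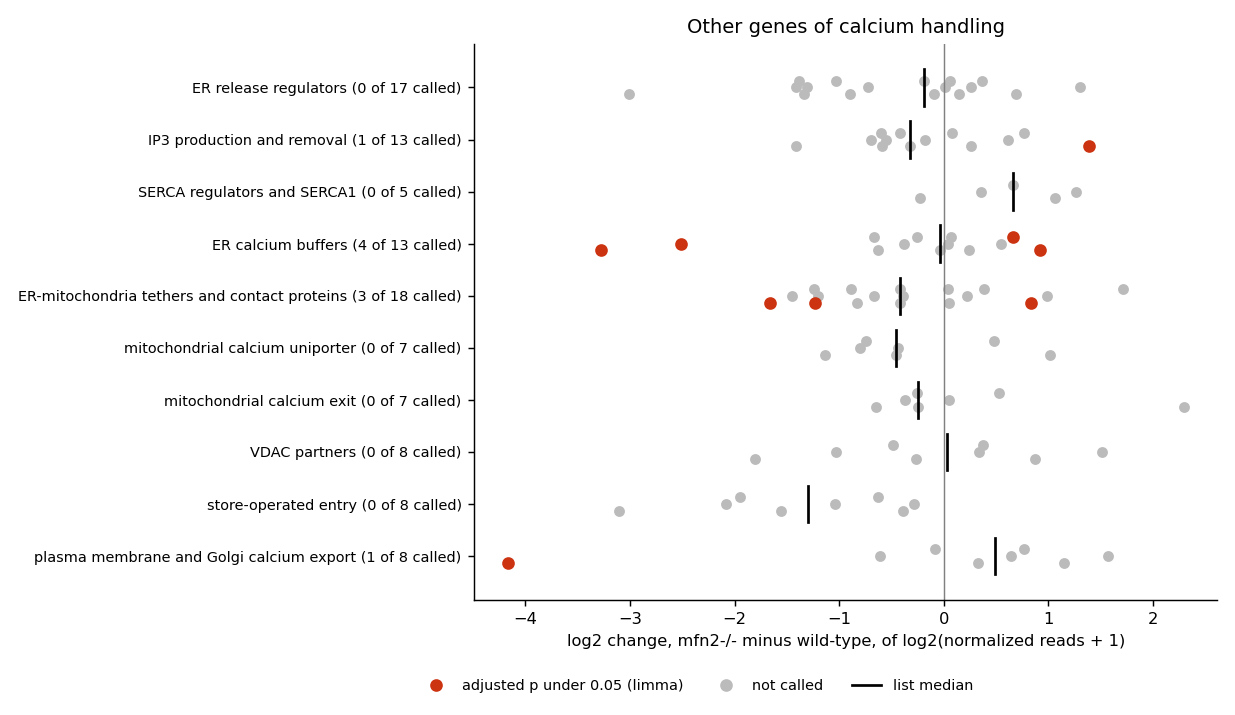
Log2 change, mfn2-/- minus wild-type (horizontal axis), of the 103 other calcium-handling genes tested, by list, with red points for an adjusted p under 0.05 in limma and black bars for list medians. The 9 called genes are 4 higher and 5 lower, and the 8 store-operated entry genes all lie below 0 without a call.

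For the 3 members with the smallest limma p, the genes with the most similar pattern were read from 5585 genes with a mean of at least 100, by Pearson's r of log2 values over the 8 libraries. For Atp2a2 these were Eif1 (r = 0.982), Pi4k2a (0.982) and Spry2 (0.980). For Atp2a3 they were Eef2k (0.995), Ryr1 (0.977) and Ghr (0.971). The ryanodine receptor Ryr1, the calcium release channel of skeletal muscle fibers, averaged 436 in wild-type and 286 in mfn2-/- libraries. For Vdac3, whose 0 in mfn2-/- replicate 4 sets most of its pattern, they were Zbtb17 (0.995), Slc41a2 (0.991) and Cdc40 (0.989). These values describe 8 libraries of differing depth that share the genotype contrast.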

How the data were processed

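Reads were made by the authors from total RNA with a stranded low-input kit. Their processing notes name Trim Galore, HISAT2, featureCounts and DESeq2 with the mouse build mm9, without versions. The annotation, and whether counting used strand, are not given in the sources used here. The deposited signal is a linear normalized read count for each gene, with 1 column per library, which was matched to its sample by group and replicate number. Dividing a column by its smallest step gave whole reads for 100% of values (within 0.1 read). A read was worth 0.534 to 2.27 normalized reads. Without molecular identifiers, copies made by amplification count as reads. The table has no positions, and those printed come from GENCODE M21 (GRCm38).

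The main test was limma 3.58.1 (R 4.3.3) with its trend option and genotype as the sole term, on log2(value + 1) of the 11754 genes averaging at least 10. P-values were two-sided and adjusted after Benjamini and Hochberg, with a threshold of 0.05. Single values had a two-sided exact permutation test, which runs through 70 arrangements. The study names DESeq for this comparison, and edgeR 4.0.16 (quasi-likelihood) and DESeq2 1.42.0 were run on the recovered reads as alternatives. The other alternatives were pseudocounts of 0.1 and 10, no filter or a mean of at least 50, equal totals, upper-quartile and quantile scaling, a replicate block, no trend, library weights, an adjusted p under 0.01 and each library left out. The scripts were tested on simulated data. The 10 genes, the pathway and marker lists and the tests were chosen with earlier results of these data known. Genes named are the 10, Mfn2, every called gene of the pathway lists with the 2 that have the highest mean in each, and the 3 nearest genes of the 3 members with the smallest p. A gene that this rule names is not reported here. The presence of Y-linked reads as a term, leaving out both shallowest libraries together, and the length of all annotated exons were added after the data were seen. Lengths are those of the longest coding transcript. Of the listed genes Tespa1, Mrln, Strit1, Ckmt1, Trpc4, Slc35g1 and Sept4 were not matched to a row, and 24 rows carry symbols turned into dates.

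Marker lists not given in the report showed the following. Of mural cell markers 1 was called higher and 2 lower (of 6 tested), and of glia markers 1 was lower (of 4). The higher mural marker is also on the muscle stem cell list and is counted there too. It was the only positive change of the mural list, against 5 negative. Of all genes tested 10.4% were called. The platelet list had 1 gene tested and 0 called. Of lymphocyte markers 0 reached the filter, with a summed level of 0 to 9.33 in wild-type and 14.7 to 34.8 in mfn2-/- libraries.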

Additional observations from a re-analysis of the deposited data

Results flagged for a closer look

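In each group of 4 libraries the highest and the lowest value were compared with the rest by Dixon's ratio, for the 10 genes and the family shares. Of 38 groups of values 6 exceeded the 95% critical value, where chance gives about 1 in 20, or 1.9. Of these 6, 4 were in mfn2-/- replicate 4, a library with 2269009 reads and 9646 genes detected. In it Itpr3 stood at 914 normalized reads against 192 to 237 in the other mfn2-/- libraries, and took 57.4% of the IP3 receptors. The share of Itpr1 was 22.1% there and that of Itpr2 20.5%. These shares sum to a fixed total and are not independent of each other. Itpr2 stood at 578 normalized reads in wild-type replicate 1, the shallowest library, and between 961 and 975 in the remaining libraries of that genotype. Atp2a2 stood at 4127 in mfn2-/- replicate 3, against 3248 to 3372 in the other mfn2-/- libraries, and without that library its log2 change was 0.48 (limma adjusted p = 0.171).

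The change with genotype was compared between libraries with and without Y-linked reads for 37 named genes, by the interaction in limma. Of these, 3 differed at an adjusted p under 0.05 over all genes, against 1.47% of all genes tested. Atp2a1 differed by -3.19 on the log2 scale (adjusted p = 0.00452), Itpkc by 2.33 (adjusted p = 0.00822) and Hspa5 by 0.74 (adjusted p = 0.0253). Hspa5 was higher in mfn2-/- libraries in both kinds, with log2 changes of 1.30 with Y-linked reads and 0.55 without them.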

How the results depend on the processing

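Of the 10 genes 0 were called, and 0 were called in 18 of 23 alternatives, among them each library left out. The exceptions were 1 with a mean of at least 50 (15.4% of all genes tested), 1 with upper-quartile scaling (12.5%), 1 with DESeq2 (14.8%), 2 with library weights (25.8%) and 2 with the presence of Y-linked reads as a term (12.4%). Atp2a2 was called in all 5 (log2 change 0.76 with upper-quartile scaling and 0.64 with weights) and Atp2a3 with weights (-1.42) and the term. Atp2a2 was positive in every alternative, 0.48 to 0.76, with adjusted p of 0.00233 to 0.251, and Atp2a3 negative, -2.13 to -1.04 (0.0141 to 0.343). The 9 pathway calls of 103 became 5 with a pseudocount of 0.1 (8.48% of all genes tested), 4 without the trend (5.39%), 26 with weights (25.8%), 2 at an adjusted p under 0.01 (4.24%), and 3 to 11 with 1 library left out (5.74% to 11.3%), so the calls of all genes moved in the same direction. The cause of these shifts was not tested, except that the stricter threshold gives fewer calls by construction.

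Changes of sign were seen in genes that were not called. With upper-quartile scaling the log2 change was 0.046 for Itpr2, 0.10 for Vdac1, 0.019 for Vdac2 and 0.20 for Stim1. With quantile normalization it was 0.0033 for Vdac1, 0.080 for Stim1 and 0.11 for Orai1. Stim1 gave 0.045 with equal totals and 0.0068 with edgeR. Library weights gave 0.13 for Itpr1, 0.033 for Itpr2, -0.51 for Itpr3, -0.31 for Atp2a1 and 0.13 for Tmem66. Without both shallowest libraries it was 0.0030 for Itpr1, -0.53 for Itpr3 and 0.037 for Stim2. With 1 library left out, log2 changes ran from -0.49 to 0.0025 for Itpr1, -0.35 to 0.12 for Itpr2, -0.47 to 0.28 for Itpr3, -0.27 to 0.065 for Vdac1, -2.25 to 0.11 for Vdac3, -0.17 to 0.21 for Stim1 and -0.47 to 0.14 for Afg3l2. Differences in share, in percentage points, ran from -8.06 to 0.817 for Itpr1, -3.65 to 3.77 for Itpr2, -4.59 to 10.7 for Itpr3, -0.822 to 5.21 for Vdac1, -6.25 to 6.05 for Vdac2, -5.66 to 5.15 for Vdac3 and -5.93 to 2.86 for Atp2a1. The Vdac2 difference was -0.178 without division by length and -0.629 with all exons as length. Exact tests of shares with 3 against 4 libraries cannot give a p under 0.05.

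Replicate numbers showed no sign of pairing the samples, though these values cannot exclude a weak pairing. Deviations from the group means of same-numbered libraries correlated at -0.0347, -0.0532, 0.0383 and -0.111 for numbers 1 to 4. Between libraries of different numbers the correlations ran from -0.058 to 0.119. With the replicate number as a block 0 of the 10 genes and 9 pathway genes were called, and the adjusted p of Atp2a2 was 0.0967.

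The fewest reads in all lay behind Orai1, 16 to 57 per library, and Vdac3, 0 to 249.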
